A study of Mus musculus with 2 samples.

Results

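The transcripts of 10 genes of type 1 conventional dendritic cells (Batf3, Irf8, Zbtb46, Clec9a, Treml4, Cadm1, Plbd1, Naaa, Rab7b and Wdfy4) were examined in bone marrow LSK cells of wild-type and PAD4-deficient mice. The array held 27595 genes by name, and the 10 members were taken from it by gene name, with older names of the same gene accepted. They were chosen after differences between these same 2 arrays were known, so their differences are given as a description and carry no test. LSK cells are the bone marrow fraction that is negative for lineage markers and positive for Sca-1 and c-Kit, and they contain the haematopoietic stem cells and multipotent progenitors. The control group was 1 sample of wild-type C57BL/6 LSK cells, and the other group was 1 sample of PAD4-/- LSK cells of the same strain. No treatment is named for either group, and the sources used here give neither the PAD4 allele nor the age and sex of the mice or any pooling of animals. PAD4, encoded by Padi4, is a peptidylarginine deiminase that converts arginine residues of histones to citrulline.

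Type 1 conventional dendritic cells arise in the bone marrow from dendritic cell progenitors under the growth factor Flt3 ligand. Their development depends on the transcription factors IRF8 and BATF3, and BATF3 sustains the expression of Irf8 once the lineage is committed. The mature cells take up dead cells and present the antigens of these cells to CD8 T cells on MHC class I molecules, a process called cross-presentation. The mature cells are found mainly in lymphoid organs and peripheral tissues, whereas their progenitors reside in the marrow.

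Each sample was hybridised to 1 Cy3 array, on 1 slide that was read in a single scan. The scanner software called 63.9% of 41170 probes well above background in the wild-type sample and 64.1% in the PAD4-/- sample. The lowest processed signal of a probe called well above background was 17.7 and 18.5, in the arbitrary units of the scanner. Signals below are processed signals, that is, spot intensities as corrected by the scanner software. The correction is more than a subtraction of background, since the wild-type Wdfy4 spot had a processed signal of 40889 and a mean signal of 32561. A difference is the log2 signal of the PAD4-deficient array minus that of the wild-type array, after each array was set to its 75th percentile, so that 1 is a 2-fold higher signal. The error given with a difference is the scanner's own spot error and covers no variation between mice. With 1 array per group no test was possible, and none of the differences had a replicate check. Padi4 itself gave 12879 in wild-type and 2670 in PAD4-/- cells (-2.22 ± 0.20). Kit and Ly6a, which encode the c-Kit and Sca-1 antigens of the sort, differed by 0.07 and -0.14. Xist, the RNA of the inactive X chromosome, exceeded its wild-type signal at least 951-fold in the PAD4-/- sample. The Y-linked genes Ddx3y and Eif2s3y differed by -1.36 and -1.23. Ddx3y gave 3455 and 1297 and Eif2s3y 2611 and 1076, so both stayed well above background in the PAD4-/- sample. Genotype, slide position and this difference in sex-linked transcripts cannot be told apart.

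The 10 members were represented by 17 probes, each printed as 1 spot. Of the 17 probes, 11 were called well above background in both samples, 2 in PAD4-/- cells only, 2 in wild-type cells only and 2 in neither. By gene, 9 members were measured in both samples, and Clec9a passed this call in PAD4-/- cells alone. By the brightest probe measured on both arrays, 6 of these 9 members (Plbd1, Treml4, Batf3, Rab7b, Naaa and Cadm1) reached a 2-fold higher signal in PAD4-/- cells, and 7, with Irf8 added, reached 1.5-fold. By such probes no member was 1.5-fold or 2-fold lower. This count leaves out the 2 probes that passed the call in wild-type cells only, both of Zbtb46. Over all 17022 genes measured on both arrays, 1.01% reached 2-fold in the same direction and 0.476% in the opposite one. At 1.5-fold the shares were 2.88% higher (490 genes) and 1.87% lower (318 genes), and with each array set to its median instead of its 75th percentile the counts were 426 and 417. Since the members were picked from this contrast, nothing is read from the gap between these shares and the members' counts. The median difference was 1.65 over the 9 members and 0.02 over all genes. In bulk RNA, a change in the number of cells of a type and a change in RNA per cell cannot be told apart.

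**Figure D1:**
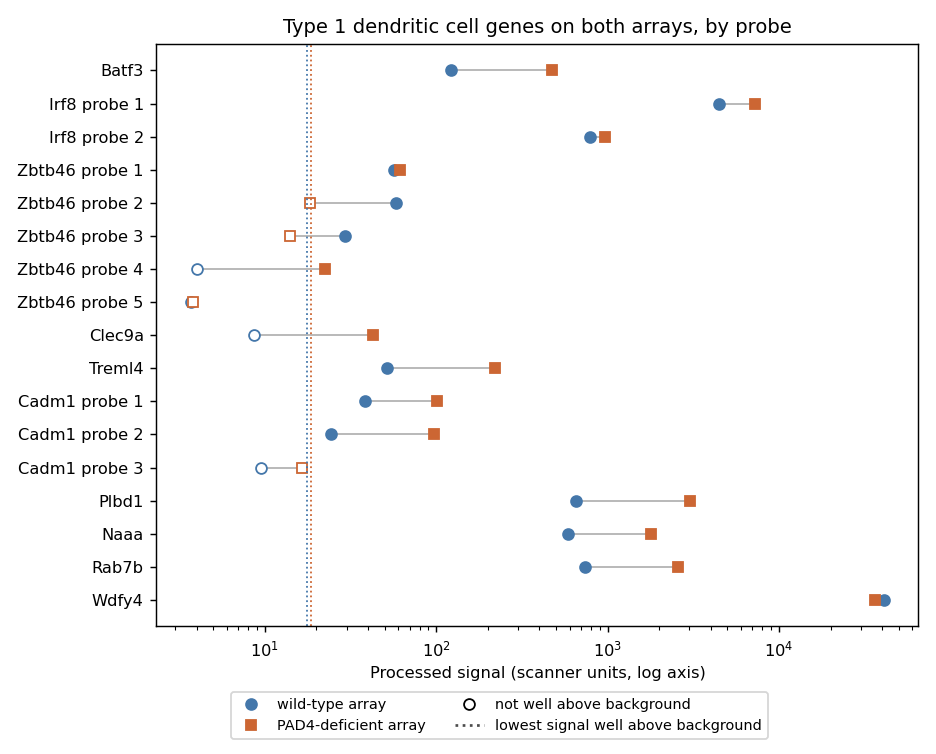
Processed signal (scanner units, log axis) of all 17 probes of the 10 members on the wild-type array (circles) and the PAD4-deficient array (squares), with open symbols where a probe was not well above background and dotted lines at the lowest signal well above background, 17.7 and 18.5. The squares of Batf3, Treml4, Plbd1, Naaa and Rab7b lie well to the right of their circles, the symbols of Wdfy4 and of the first Zbtb46 probe nearly coincide, and Clec9a crosses the background lines.

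Among the transcription factors, Batf3 was higher on the PAD4-deficient array, the brightest Irf8 probe was higher by less, and Zbtb46 gave no common direction over its probes. BATF3 is a leucine zipper protein of the AP-1 superfamily that binds DNA with JUN proteins and is required for this dendritic cell lineage. Its single probe, listed under the older name 9130211I03Rik and placed at chr1:192809264-192809323 of mm8, gave 121 in wild-type and 477 in PAD4-/- cells. The difference was 2.02 ± 0.21, a 4.07-fold higher signal. Without the authors' background model, as mean signal minus local background, the spot gave 146 and 495 and a difference of 1.81. The wild-type spot was thus clearly detected, at 4.31 times its local background, and the PAD4-deficient spot stood at 11.5 times its own.

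IRF8 is an interferon regulatory factor needed for type 1 dendritic cells, plasmacytoid dendritic cells and monocytes, and it is already transcribed in progenitors that lack dendritic cell features. Both Irf8 probes lie within one short stretch of chromosome 8 and both were bright. The probe at chr8:123642401-123642460 (mm8) gave 4482 and 7275, a difference of 0.75 ± 0.20 that was the same after subtraction of local background. The other probe, at chr8:123641966-123642025, gave 789 and 965 and a difference of 0.34 ± 0.20. Both probes were higher in PAD4-/- cells, but only the brighter passed 1.5-fold, and the mean of the 2 probes was 0.54. The brighter probe thus showed a 1.68-fold higher signal, beside 4.07-fold for Batf3, and whether these 2 genes differ in their response was not tested.

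ZBTB46 is a zinc finger repressor that marks conventional dendritic cells and their committed precursors as a class rather than the type 1 branch alone. The gene had 5 probes on chromosome 2, all listed under the older name Btbd4, and all were dim. The probe measured on both arrays, at chr2:181341106-181341165 (mm8), gave 57.0 and 61.2, a difference of 0.15 ± 0.24 that lay within the scanner error. A neighbouring probe at chr2:181340501-181340560 passed the background call in wild-type cells only, with 29.5 and 14.0, which is at least 1.54-fold lower in PAD4-/- cells. The probe at chr2:181351133-181351192 behaved alike, with 58.3 and 18.4, and was at least 3.04-fold lower. After subtraction of local background these 2 probes gave smaller differences, -0.47 and -0.81. The probe at chr2:181317568-181317627 ran the other way, with 4.01 and 22.4, passing the call in PAD4-/- cells only and at least 1.31-fold higher there. The fifth, at chr2:181318881-181318940, did not pass it in either sample, with 3.71 and 3.81, signals about as large as their scanner errors. The last 3 of these probes were designed on cDNA clones and were tied to Zbtb46 by name alone, so which transcript each reports is unknown. No direction is given for the gene.

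The surface receptor genes had dim probes, all higher in PAD4-/- cells where they were detected. CLEC9A is the C-type lectin by which type 1 dendritic cells recognise the exposed actin of dead cells and direct their cargo to cross-presentation. Its single probe, at chr6:129389872-129389931 (mm8), gave 8.60 in wild-type cells, which was not well above background, and 42.6 in PAD4-/- cells. The PAD4-/- signal was at least 2.49-fold higher, counted against the lowest signal well above background. As mean minus local background the spot gave 24.8 and 53.8. The 153 negative control spots, treated the same way, had a median of 20.9 and a 95th percentile of 28.7 for wild-type, and 21.8 and 30.7 for PAD4-/-. The wild-type value of Clec9a thus lay inside the range of the negative controls and the PAD4-deficient value above their 95th percentile. The probe rests on a cDNA clone and was matched by symbol.

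TREML4 is a receptor of the TREM-like family found on splenic dendritic cells and macrophages, where it binds dead cells. Its probe at chr17:47740888-47740947 (mm8) gave 51.7 and 219, a difference of 2.13 ± 0.24. The probe was called well above background in both samples, but the size of its difference moved with the background treatment. As mean minus local background the signals were 72.8 and 233 and the difference was 1.72, and with normexp background correction and an offset of 50 it was 1.30.

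CADM1 is an immunoglobulin-superfamily adhesion molecule through which type 1 dendritic cells contact activated CD8 T cells and natural killer cells that carry its ligand CRTAM. Of its 3 probes on chromosome 9, 2 were measured in both samples and both were higher in PAD4-/- cells. The probe at chr9:47603562-47603621 (mm8) gave 38.2 and 102, a difference of 1.46 ± 0.25. The probe at chr9:47601876-47601935 gave 24.4 and 97.4, a difference of 2.05 ± 0.32. The third, whose match spans chr9:47550507-47561079, was not well above background on either array, with 9.47 and 16.5. After subtraction of local background the first 2 probes differed by 1.13 and 1.60, and with normexp and an offset of 50 by 0.79 and 0.98, which is below 2-fold for both.

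Plbd1, Naaa and Rab7b, members with roles in lysosomes or vesicle traffic, were each more than 2-fold higher in PAD4-/- cells. Their signals were at levels where the removal of background changed little. PLBD1 is a phospholipase B-like lysosomal protein whose transcript is abundant in type 1 dendritic cells and in other myeloid cells. Its probe, listed as 1100001H23Rik at chr6:136576322-136576381 (mm8, minus strand), gave 656 and 3023. The difference of 2.25 ± 0.20, a 4.77-fold signal, was the largest of the members measured on both arrays. It was 2.23 with mean minus local background and 2.17 with normexp and an offset of 50.

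NAAA is the lysosomal amidase that hydrolyses N-acylethanolamines, a group of lipid mediators. Its probe, listed as Asahl at chr5:93333845-93333904 (mm8, minus strand), gave 588 and 1790, a difference of 1.65 ± 0.20, and 1.57 after subtraction of local background. RAB7B is a small GTPase that acts in transport between late endosomes and the trans-Golgi network. Its probe, listed as 5430435G22Rik at chr1:133540234-133540293 (mm8), gave 737 and 2586, a difference of 1.86 ± 0.20, and 1.83 after subtraction of local background. All 3 of these wild-type signals were far above the lowest detectable signal of that array, by 37.0 times for Plbd1, 33.2 times for Naaa and 41.6 times for Rab7b. For Treml4 the same ratio was 2.92 and for the first Cadm1 probe 2.16.

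WDFY4 is a BEACH-domain protein that type 1 dendritic cells need for cross-presentation of antigens from cells, and it is also expressed in B cells. Its single probe was very bright on both arrays, with 40889 and 36326, and its difference of -0.12 ± 0.20 lay within the scanner error. Of the 9 members measured in both samples, it was the only one with a lower scaled signal in PAD4-/- cells. The probe, at chr14:31788727-31788786 (mm8, minus strand), was designed on a cDNA clone from dendritic cells and was matched by symbol, so the transcript behind this signal in LSK cells is not settled by the files. The summed signal of the 9 members was 47621 in wild-type and 51859 in PAD4-/- cells, of which Wdfy4 gave the larger part in each.

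**Figure D2:**
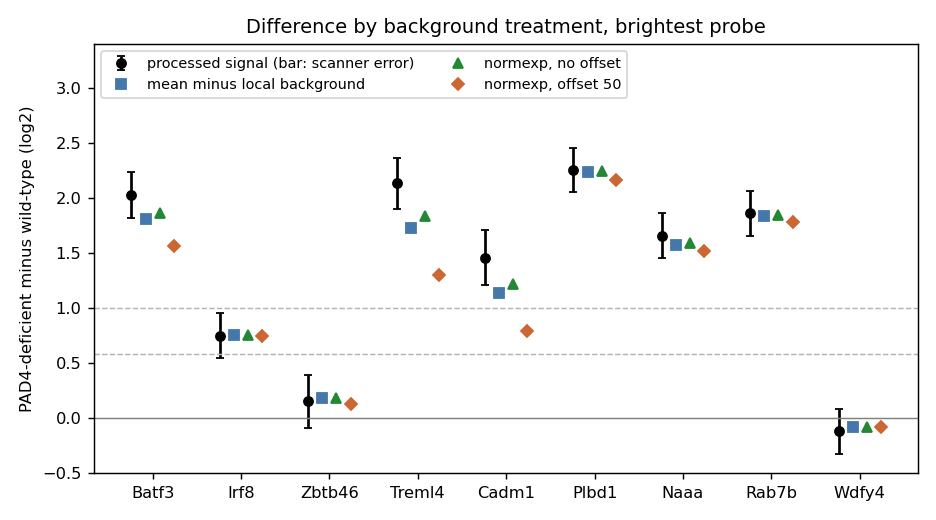
PAD4-deficient minus wild-type difference (log2) of the 9 members measured on both arrays, by the brightest probe, from the processed signal (black circles, bars give the scanner error), from mean minus local background (blue squares) and from normexp background correction without an offset (green triangles) and with an offset of 50 (orange diamonds); dashed lines mark 1.5-fold and 2-fold. Plbd1, Naaa, Rab7b and Irf8 hardly move between treatments, whereas Treml4 falls from 2.13 to 1.30 and Cadm1 from 1.46 to 0.79. Batf3 falls from 2.02 to 1.56.

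Subtraction of local background kept the same counts as the processed signal, with 6 of the 9 members at 2-fold or more and 7 at 1.5-fold or more. Over all genes the shares under this treatment were 0.634% and 2.01%. The median of the members was 1.57. With normexp and an offset of 50, 5 members reached 2-fold, Cadm1 being lost, 7 reached 1.5-fold and the median was 1.30, beside 0.394% of all genes at 2-fold and 1.2% at 1.5-fold. The negative control spots kept a median of about 21 units after subtraction of local background, as given above for Clec9a, so that subtraction left signal on spots that match no transcript.

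**Figure D3:**
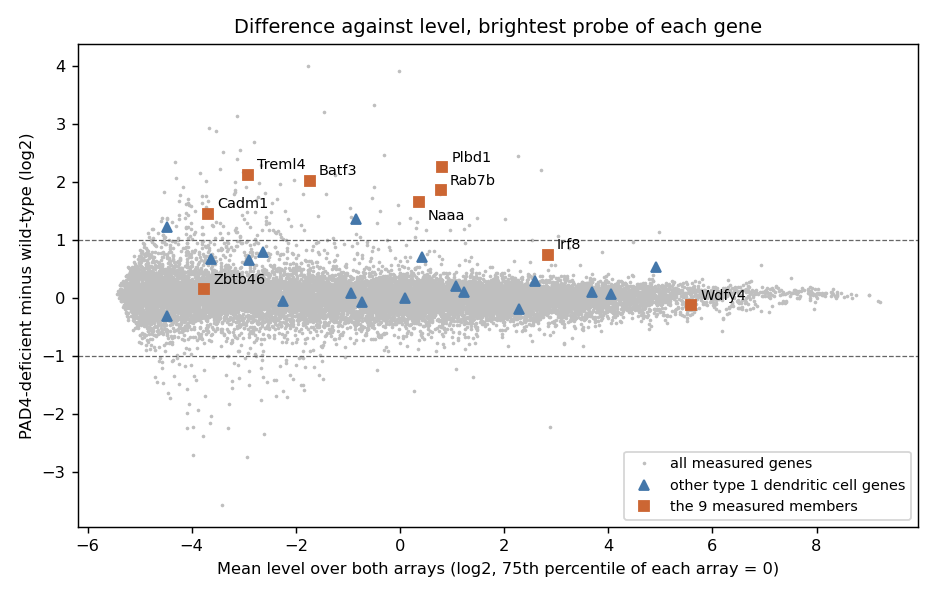
PAD4-deficient minus wild-type difference (log2) against the mean level over both arrays (log2, with the 75th percentile of each array at 0) for all 17022 measured genes (grey), the 18 measured genes of a further type 1 dendritic cell list (blue triangles) and the 9 measured members (orange squares); dashed lines mark 2-fold. Plbd1, Rab7b and Naaa stand above the cloud at a middle level, Treml4, Batf3 and Cadm1 at low levels where the cloud is wider, and Wdfy4 lies inside it at a high level.

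The promoters of the members were read to see what the genes that were higher share in sequence. RefSeq windows of GRCm38.p6, from 250 bases before to 50 bases after the start, were at hand for 8 of the 10 members, with 9 windows in all because Irf8 has 2. The motifs searched on both strands were TGANTCA, the AP-1 site that BATF3 and JUN proteins can bind, GAAANNGAA, a short form of the interferon response element, GGAANNGAA, a short form of the ETS and IRF element, and GAAATGA, a short form of the composite IRF and AP-1 element. Batf3 is shown because it was the transcription factor with the largest difference, and Clec9a and Zbtb46 because they were the only members whose windows held a match. Matches are in capitals; Batf3 has none.
Batf3 (chr1:191098164-191098463, plus strand): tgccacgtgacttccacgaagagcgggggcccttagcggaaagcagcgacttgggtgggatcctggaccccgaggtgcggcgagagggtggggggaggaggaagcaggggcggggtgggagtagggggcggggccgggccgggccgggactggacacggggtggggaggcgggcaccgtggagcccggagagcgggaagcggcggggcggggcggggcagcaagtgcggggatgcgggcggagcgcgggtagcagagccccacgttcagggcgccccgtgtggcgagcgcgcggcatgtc
Clec9a (chr6:129408612-129408911, plus strand): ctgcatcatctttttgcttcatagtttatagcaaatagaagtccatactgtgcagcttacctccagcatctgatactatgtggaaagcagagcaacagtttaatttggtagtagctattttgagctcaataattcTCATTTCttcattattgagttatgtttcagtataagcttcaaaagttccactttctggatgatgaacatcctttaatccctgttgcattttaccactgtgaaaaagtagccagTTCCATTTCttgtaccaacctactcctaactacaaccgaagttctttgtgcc
Zbtb46 (chr2:181424339-181424638, minus strand): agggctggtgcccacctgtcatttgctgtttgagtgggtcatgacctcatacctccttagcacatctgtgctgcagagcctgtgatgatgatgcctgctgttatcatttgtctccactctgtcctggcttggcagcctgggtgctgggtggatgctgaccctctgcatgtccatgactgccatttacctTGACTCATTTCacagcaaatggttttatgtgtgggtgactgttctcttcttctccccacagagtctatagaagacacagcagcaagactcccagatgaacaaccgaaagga

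In Zbtb46 the match to TGANTCA began 61 bases before the start and overlapped a match to the reverse complement of GAAATGA that began 57 bases before it. In Clec9a a match to the reverse complement of GAAATGA began 115 bases before the start, and a match to the reverse complement of GAAANNGAA began 2 bases before it. Among 32851 promoter windows of the same length, 7.81% held TGANTCA, 8.56% GAAANNGAA, 8.24% GGAANNGAA and 5.45% GAAATGA. The windows of Batf3, Irf8, Plbd1, Naaa, Treml4 and Wdfy4 held none of the 4 motifs. Base composition also varied widely among the members. The Batf3 window had 75.7% G and C with 34 CpG dinucleotides, and one of the Irf8 windows 70.0% with 38. The Clec9a window had 37.0% with 1 CpG and the Treml4 window 54.3% with 2, against a median of 52.7% over all windows. Among the members that were higher in PAD4-/- cells and had a window, the Clec9a window alone held a match, and windows rich and poor in CpG both occurred. Cadm1 and Rab7b, which were also higher, had no window and were not searched. The 10 members lie on 8 chromosomes.

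Further genes of the same lineage, which were not among the members, were also described. This list and the lists after it were likewise chosen with earlier results of these data known. Nothing is read from the gap between their counts and the shares of all genes. Of the 26 further genes of this lineage, 18 were measured in both samples. Of these, 6 reached 1.5-fold higher and none 1.5-fold lower, beside 2.88% and 1.87% of all genes. The median difference of the 18 genes was 0.16. Of the 6, 4 reached 1.5-fold with mean minus local background and 2 with normexp and an offset of 50. The largest was Jaml, a junctional adhesion molecule of leukocytes, with 283 and 702, a difference of 1.36 ± 0.21. Cd36, a scavenger receptor, differed by 1.23 ± 0.32 at dim signals of 23.8 and 54.0, and by 0.47 with normexp and an offset of 50. Snx22, a sorting nexin, differed by 0.80 ± 0.21, and by 0.54 under that correction. Xcr1, the chemokine receptor that defines mature type 1 dendritic cells, gave 86.8 and 133, a difference of 0.66 ± 0.22 that was 0.53 after subtraction of local background and so below 1.5-fold. Id2, an inhibitor of E proteins that dendritic cell precursors switch on, differed by 0.72 and 0.84 by its 2 probes.

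Another 4 genes of this list passed the background call in PAD4-/- cells only, as did 2.28% of all 27595 genes, while 1.87% passed it in wild-type cells only. For Cd8a, Tlr3 and Septin3 this rests on part of their probes, since others passed in neither sample. Cd8a, the CD8 alpha chain carried by the lymphoid-organ form of these cells, was at least 4.42-fold higher, with 9.74 and 75.5. Tlr3, the endosomal receptor for double-stranded RNA that is abundant in type 1 dendritic cells, was at least 2.79-fold higher, with 7.64 and 47.7. Hepacam2 and Septin3 were at least 1.88-fold and 1.73-fold higher. Clec12a, Cd207 and Gpr33 were not well above background on either array, and Tlr11 had no probe. Nfil3, a transcription factor upstream of the lineage, and Itgax, which encodes CD11c, lay near 0 by their brightest probes, at 0.00 and 0.08. The other Itgax probe gave 0.37. Ifi205 gave 0.10 by its brightest probe and 2.55 by another, so its probes disagree.

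Other branches of the dendritic cell family gave medians near 0. Of 15 measured genes of the type 2 branch, 2 were higher by 1.5-fold or more and 1 lower, with a median of -0.04. Irf4, the interferon regulatory factor of the type 2 branch and the closest relative of Irf8, gave 63.3 and 158, a difference of 1.37 ± 0.22. Mgl2, a galactose-type lectin, differed by 0.87 at dim signals of 34.5 and 61.0, and by 0.56 after subtraction of local background, which is below 1.5-fold. Relb, an NF-kappaB subunit, differed by -0.65. Of 16 measured plasmacytoid dendritic cell genes, 3 were higher and 2 lower, with a median of 0.10. Mpeg1, which encodes a pore-forming protein of phagocytes, differed by 1.36 by its brightest probe and by 0.47, below 1.5-fold, by another. Ly6d differed by 0.71 and Spib by 0.59 (0.53 after subtraction of local background, below 1.5-fold), while Ccr9 differed by -0.67 and Irf7 by -0.90. Siglech, a defining gene of plasmacytoid cells, was not well above background on either array.

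Receptors and regulators upstream of the lineage had a median near 0. Of 25 measured genes for growth factor receptors and progenitor regulators, 2 were higher by 1.5-fold or more and 1 lower, with a median of 0.08. Flt3, the receptor of the growth factor that drives dendritic cell development, gave 2439 and 1481, a difference of -0.67 ± 0.20, opposite in sign to the members that were higher. Spi1, which encodes PU.1, gave 398 and 257, a difference of -0.58, just short of 1.5-fold. Mycl, a MYC family gene that dendritic cells use from the progenitor stage onwards, differed by 1.21 ± 0.30 at dim signals of 30.8 and 68.7, and by 0.47 with normexp and an offset of 50, which is below 1.5-fold.

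The partners and relatives of BATF3 and IRF8 also had a median near 0. Of 18 measured BATF, JUN and IRF genes, 1 was higher (Irf4) and 1 lower (Irf7), with a median of 0.03. Batf and Batf2, which can stand in for BATF3 in type 1 dendritic cells, differed by 0.11 and 0.07. Among 28 measured genes of antigen uptake and cross-presentation, 3 were higher and 1 lower, with a median of 0.06. Cd74, the MHC class II invariant chain, gave 4580 and 9269, a difference of 1.07 ± 0.20, and Ciita, the class II transactivator, differed by 0.84. Cybb, the NADPH oxidase subunit of phagocytes, differed by 1.67 ± 0.31 at signals of 24.0 and 74.0, and by 0.66 with normexp and an offset of 50. Tap1, a peptide transporter subunit of the class I route, differed by -0.62 (-0.52 after subtraction of local background, short of 1.5-fold). Unc93b1 gave -0.13 by its brightest probe and -1.01 by another, so its probes disagree. Sec22b and B2m lay at -0.02 and 0.05.

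**Figure D4:**
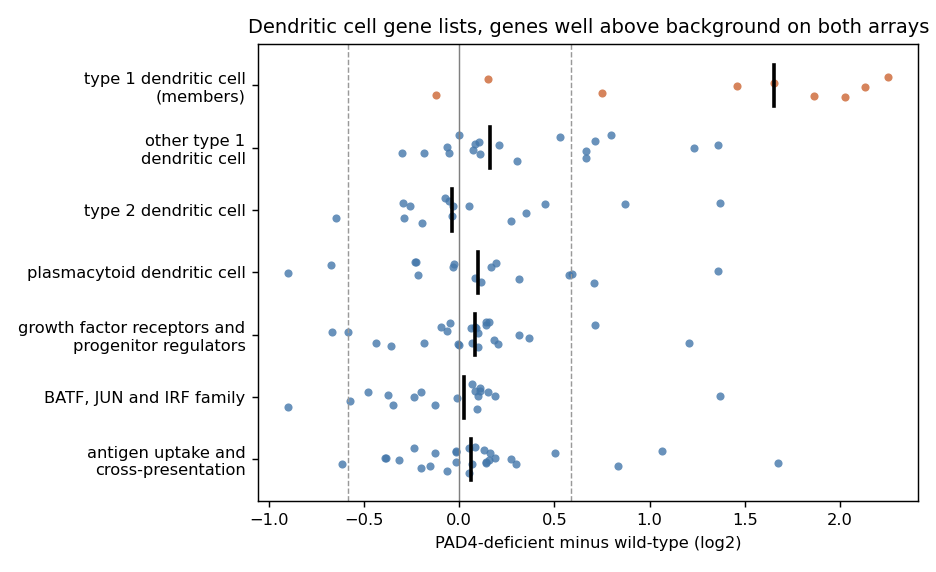
PAD4-deficient minus wild-type difference (log2) of the genes well above background on both arrays, for the 9 measured members (orange) and 6 further gene lists (blue), 1 point per gene, with a black bar at the median of each list and dashed lines at 1.5-fold in each direction. The members have a median of 1.65, and the medians of the other lists lie between -0.04 and 0.16.

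Markers of other blood cells differed between the same arrays; the counts below are at 1.5-fold, which 2.88% of all genes passed upwards and 1.87% downwards. Of 11 measured B cell and plasma cell markers, 6 were higher in PAD4-/- cells by 1.5-fold or more, with a median of 0.62 and summed signals of 11754 and 17633; Prdm1 was not well above background on either array. Jchain differed by 2.46 and Pax5 by 1.23. Of 12 measured neutrophil markers, 3 were higher, with a median of 0.49 and summed signals of 122919 and 180785. Elane differed by 1.92 and Ms4a3 by 1.79, and both are genes of early granule-forming progenitors. Of 8 measured erythroid markers, 5 were higher, with a median of 1.25, while the summed signals were 27998 and 27947; Hbb-b1 had no probe. Of 7 measured mast cell and basophil markers, 4 were higher and 1 lower, with summed signals of 2496 and 4059; Ms4a2 passed the background call in PAD4-/- cells only and Tpsab1 in neither sample. Of 12 measured monocyte and macrophage markers, 2 were higher and none lower, with a median of 0.12. Their summed signals were 71658 and 73299, of which Lyz2 gave the larger part in each. Vsig4 passed the call in PAD4-/- cells only, with 14.6 and 261, at least 15.2-fold higher. Ly6c1 gave 0.15 by its brightest probe and 1.84 by another, so its probes disagree. Of 6 measured T and natural killer cell markers, 2 were higher and 1 lower, with summed signals of 3482 and 2786, and Cd3g, Ncr1 and Gzma passed the call in neither. Of 12 stem and multipotent progenitor markers, none was higher and Flt3 was lower, with a median of -0.04 and summed signals of 162026 and 145487. The part of these other cell types in the differences of the members was not tested. No deposited file separates LSK subsets, so whether the members' transcripts came from differentiated dendritic cells or from progenitors was not tested.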

How the data were processed

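LSK cells of 1 wild-type and 1 PAD4-deficient sample were measured on 1-colour Agilent arrays, design 014868. Per the file headers, Feature Extraction 9.5.3.1 read the arrays (the submitters' processing notes give 9.5) and probe positions refer to mm8. The deposited scanner files hold the authors' intensity per spot on a linear scale, as processed signal with its error and as mean and local background, with a p-value per spot against background. The value table, also deposited, gives log2 values: each column is log2 of a probe's median processed signal minus a constant (9.67 wild-type, 9.62 PAD4-deficient; column medians -3.59 and -3.53), so its scale, centring and direction are known.

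Here, the log2 processed signal was averaged over unflagged spots and set to each array's 75th percentile (814 and 786); 4 of 41174 probes had no unflagged spot. A gene took its brightest probe well above background on both arrays. A gene detected on 1 array only is given as an at-least fold against the higher of its dim signal and the lowest signal well above background there. No spot was saturated. RefSeq GRCm38.p6 gave names (24371 probes by accession, 6301 by symbol, 2426 by synonym; 8072 kept the file's name). Of the 10 members, 5 stood under older names.

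Members and gene lists were chosen with earlier results of these data known. All probes of members are named; from each further list, up to 3 genes per direction at 1.5-fold or more and up to 2 well known genes near 0; of marker lists, up to 2 per direction. Id2, Xcr1, Spi1, genes detected on 1 array only and some genes whose probes disagree were named outside this rule, after their values were seen. Alternatives were mean minus local background, normexp (offset 50 or none), median, detected-probe and quantile scaling, loess (window 0.3), the deposited table, the mean over probes, the median over spots and looser filters. With 1 array per group, precision is limited by the number of arrays. The code for the probe per gene and the counts past 2-fold was run on simulated data, with noise smaller than the scanner error. All probes of a gene carried the same change there, so the choice between probes that disagree was not tested. Background treatment, probe naming, at-least folds and the motif search were not tested in this way. Python 3.11.15, numpy 2.4.6, pandas 2.3.3, scipy 1.17.1, statsmodels 0.14.6, R 4.3.3 and limma 3.58.1 were used.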

Additional observations from a re-analysis of the deposited data

How the results depend on the processing

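No paired analysis was possible because only 1 array per genotype exists in the files, and no replicate could be left out. For single members the looser filters were not run. Under the other alternatives each of the 9 members measured in both samples kept its sign, by probes measured on both arrays. For Zbtb46 all of these used the same probe. Its probes that passed the background call on 1 array only ran in both directions, so no stable direction is read for this gene. The median of the BATF, JUN and IRF family changed sign to -0.03 with median scaling and -0.08 with the mean over probes, and that of the antigen uptake genes to slightly below 0 with the mean over probes; the medians of the other 4 dendritic cell lists kept their sign under the alternatives run, and those of the marker lists were not recomputed. Over the alternatives the differences ranged from 1.56 to 2.04 for Batf3, 2.17 to 2.27 for Plbd1, 1.51 to 1.67 for Naaa, 1.78 to 1.87 for Rab7b, 1.30 to 2.14 for Treml4, 0.79 to 1.75 for Cadm1, 0.54 to 0.76 for Irf8, 0.08 to 0.18 for Zbtb46 and -0.18 to -0.08 for Wdfy4. Scaling moved the median of all genes by at most 0.06. With normexp and an offset of 50, the median of the members was 1.30, and the counts at 1.5-fold higher were 2 for the other type 1 dendritic cell genes, 1 for type 2 dendritic cell genes (also 1 with mean minus local background) and 1 for growth factor receptors and regulators. Including genes well above background on at least 1 array gave the other type 1 dendritic cell genes a median of 0.42 with 10 higher, and no filter gave 0.53 with 12 higher and 2 type 2 dendritic cell genes lower. The count of lower genes was 2 among growth factor receptors and regulators with normexp without an offset, median scaling, quantile normalization or loess, 2 in the BATF, JUN and IRF family with median scaling or the mean over probes, and 0 among antigen uptake genes with mean minus local background or with normexp, with or without the offset. Over all genes, 1.5-fold higher and lower counts of 490 and 318 became 342 and 193 with mean minus local background, 204 and 132 with normexp and an offset of 50, 962 and 622 with genes detected on at least 1 array, and 2309 and 1395 with no filter; 2-fold counts of 172 and 81 became 108 and 44, 67 and 24, 506 and 306, and 1088 and 615. Signal over background limits Clec9a, Zbtb46, Cadm1 and Treml4, whose wild-type signals lie nearest to the lowest detectable signal.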

Other observations

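The genes that lie beside the members on their chromosomes, 3 measured genes on each side in RefSeq order, were listed after the members' values were seen. Of these 60 neighbours, 7 reached 1.5-fold higher in PAD4-/- cells and none 1.5-fold lower, beside 2.88% and 1.87% of all genes, with a median of 0.07 and a range from -0.40 to 2.29. The highest was Cxcl9, a chemokine induced by interferon gamma that lies beside Naaa, which gave 57.6 and 273, a difference of 2.29 ± 0.23. Arhgap22, near Wdfy4, gave 141 and 326, a difference of 1.25 ± 0.21, while Wdfy4 itself differed by -0.12. Clec7a and Clec1b, lectin genes beside Clec9a in the same receptor cluster, differed by 0.92 and 1.02 (0.70 and 0.43 with normexp and an offset of 50, the latter below 1.5-fold), and Trem3, beside Treml4, by 1.05. Nxpe2 and Nxpe4, near Cadm1, differed by 1.09 and 0.89 at dim signals, and by 0.35 and 0.32 with normexp and an offset of 50.

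Members of the same protein families were listed in the same way. Of 34 relatives, 26 were measured on both arrays, and 4 reached 1.5-fold higher and none 1.5-fold lower, beside the same shares of all genes, with a median of 0.10. The 4 were Irf4, Trem3, Clec1b and Clec7a. The nearest relatives of the enzymes and the GTPase were near 0 or lower: Plbd2 differed by -0.34, Asah1 by 0.20 and Rab7 by 0.05. Cadm4 differed by 0.20, and Nbeal2, a BEACH-domain relative of Wdfy4, by -0.46. None of these differences has a replicate check.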
